A study of Gossypium hirsutum with 9 samples.

Results

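The baseline transcriptome of the elongating cotton fibre was described from 3 wild-type libraries (WT replicates 1 to 3) of upland cotton, Gossypium hirsutum, collected at 9 days post anthesis (DPA). These are 3 of the 9 samples of a series on WRKY16 silencing; the 6 RNAi samples were not compared here. The plants were field-grown and wild type, and fibre was the tissue sampled. The labels do not tie the 3 replicates to separate plants, so their spread may be partly technical. All 70478 genes of the deposited table were kept, with levels in FPKM (fragments per kilobase of gene normalized to the mapped fragments of the library), a unit per length in which genes can be set side by side. In a bulk sample, fewer cells of a type and less RNA per cell cannot be told apart.

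A cotton fibre is a single epidermal cell of the seed coat that elongates without dividing. During elongation, turgor built by water and solute uptake stretches a primary wall that is loosened and renewed, while actin and microtubules guide vesicle delivery and cellulose deposition. The cellulose-rich secondary wall is laid down later. Upland cotton is an allotetraploid that carries an A and a D subgenome, and most genes exist as an A and a D copy. In the identifiers, the letter after Gh_ gives the subgenome and the number after it the chromosome. The symbols attached to them are names of similar genes in some organism, and several cotton genes often share one.

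The 3 libraries were alike but not equal in depth. Column sums lay between 1245856 and 1296912 FPKM. Ratios of low values put the depth of WT replicate 2 at 1.77 times and that of WT replicate 3 at 1.38 times that of WT replicate 1. Across 32910 genes of mean 1 FPKM or more, which are not independent replicates, Pearson's r of log2 levels was 0.979 between WT replicates 1 and 2, and 0.967 and 0.969 between WT replicate 3 and these. Of the genes, 30064 (42.7%) reached 1 FPKM in all 3 libraries, and 19448 (27.6%) were listed at 0 in all 3. The median of the gene means was 0.697 FPKM. Expression was concentrated in few genes. The 10 highest genes of a library held 11 ± 0.879% of its summed FPKM (SD, n = 3), the 100 highest 29.5 ± 1.75%, and the 1000 highest 56.7 ± 1.72%.

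The label was checked against marker genes. The fibre marker E6, a fibre protein known from cotton, was high through 3 of its 6 genes, which exceeded 1000 FPKM. Of the others, 2 had means of 1 to 10 FPKM and 1 a mean under 1 FPKM, and 4 of the 6 reached 1 FPKM in all libraries. Green-tissue markers were low in sum, with 128 photosynthesis genes holding 0.0156 ± 0.00152% of FPKM, between 0.0140% and 0.0171% by library. Of these, 4 had means of 10 FPKM or more. The highest genes named PSAN, PSAO and PSAF had 33.8, 29.7 and 21.4 FPKM. The highest of the 8 genes for the small subunit of Rubisco (RBCS) had a mean of 0.951 FPKM. Among embryo markers, the 3 legumin genes (LEGA and LEGB) were listed at 0 in every library, and the highest oleosin gene, OLE3, reached 0.269 FPKM. The late-embryogenesis gene LEA5-A (Gh_A10G1465), from the same list, was at 374, 214 and 299.6 FPKM and carried 84.8% of the list, in which 13 of 27 genes (48.1%) were at 0. LEA5-D (Gh_D10G1707) had 33.5 ± 12.1 FPKM and LEA14-A (Gh_D07G1400) 8.53, 12.9 and 8.76. Among markers of dividing cells, 2 of 55 mitotic genes had means of 10 FPKM or more, both named after the mitotic cyclin CYCB1-2. The A copy (Gh_A08G0398) was at 132, 145 and 143 FPKM in WT replicates 1 to 3 and the D copy (Gh_D08G0489) at 150.0, 160.4 and 153. Of 28 genes with histone names, 14 had a mean of 10 FPKM or more, led by the H2A variant gene H2AV (Gh_D11G1312) at 315 ± 101 FPKM. The part of other cell types in the values that follow was not tested.

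The most abundant named transcripts encoded fibre and wall proteins, metallothioneins and water channels. E6 on chromosome D05 (Gh_D05G1514) had the highest mean of all genes, at 20959.5, 19289 and 20091 FPKM in WT replicates 1 to 3. Its A05 copy (Gh_A05G1347) had 16584, 15941 and 17705 FPKM. The ranges of these 2 genes did not overlap. Metallothionein MT1, a small cysteine-rich metal-binding protein, followed at 16829, 12942 and 15112 FPKM for Gh_A01G1913, and at 12827, 10199 and 11646 FPKM for Gh_D01G2172. A proline-rich protein gene, PRP (Gh_A02G0378), had 11298, 10431 and 10535 FPKM. E6 and PRP varied little, whereas MT1 was highest in WT replicate 1 and lowest in WT replicate 2 for both copies.

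Next came wall-loosening and cell-surface proteins. Expansins slip the bonds between wall polymers without cutting them. EXPA2 (Gh_D10G1145) was at 7825, 8055 and 6560.1 FPKM, and EXPA4 (Gh_A10G2323) at 7299, 7849 and 7277. The ranges of these 2 genes overlapped, so their order is not resolved. FLA11, a fasciclin-like arabinogalactan protein of the cell surface, had 7398 ± 720.3 FPKM for its A09 copy and 5173 ± 476 for its D09 copy (SD, n = 3), and FLA9 (Gh_D12G1409) had 2675 ± 507. The aquaporin gene PIP1-2 (Gh_D08G1970), a plasma membrane water channel, had 4895 ± 169 FPKM, while PIP2-8 (Gh_A01G0019) and PIP2-7 (Gh_D01G0018) had 4443 ± 549 and 3253 ± 259. SN1, named after the snakin antimicrobial peptides (Gh_D04G1574), stood at 6476 ± 132.

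The remaining named genes among the 30 highest lay between 1857 and 4540.3 FPKM. They included stress-associated names, namely SRC1 (Gh_D13G1729), LTI6A (Gh_A13G2310 and Gh_D13G1917) and the dehydration-responsive RD22 (Gh_D05G0508), at 4540.3, 4497, 2332 and 4301 FPKM. LTPG1 (Gh_D04G1824), a membrane-anchored lipid transfer protein, had 2006 ± 69.8. The auxin-binding-protein homologue ABP20 (Gh_D05G0341) had 2441 ± 537, and the epidermis gene PDF1 (Gh_D04G0335) 2411 ± 309. XTH7 (Gh_Sca010556G01), a xyloglucan endotransglucosylase that cuts and rejoins wall xyloglucan, had 1857 ± 372. The ribosomal protein gene RPS28 (Gh_D01G1202) and the ubiquitin genes UBQ11 (Gh_D06G1600 and Gh_A06G1276) had 2853, 2362 and 2013 FPKM. XL3, F16, tma7 and the DFC pair completed the set, at 4483, 3522, 2295, 2272 and 2004 FPKM.

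**Figure D1:**
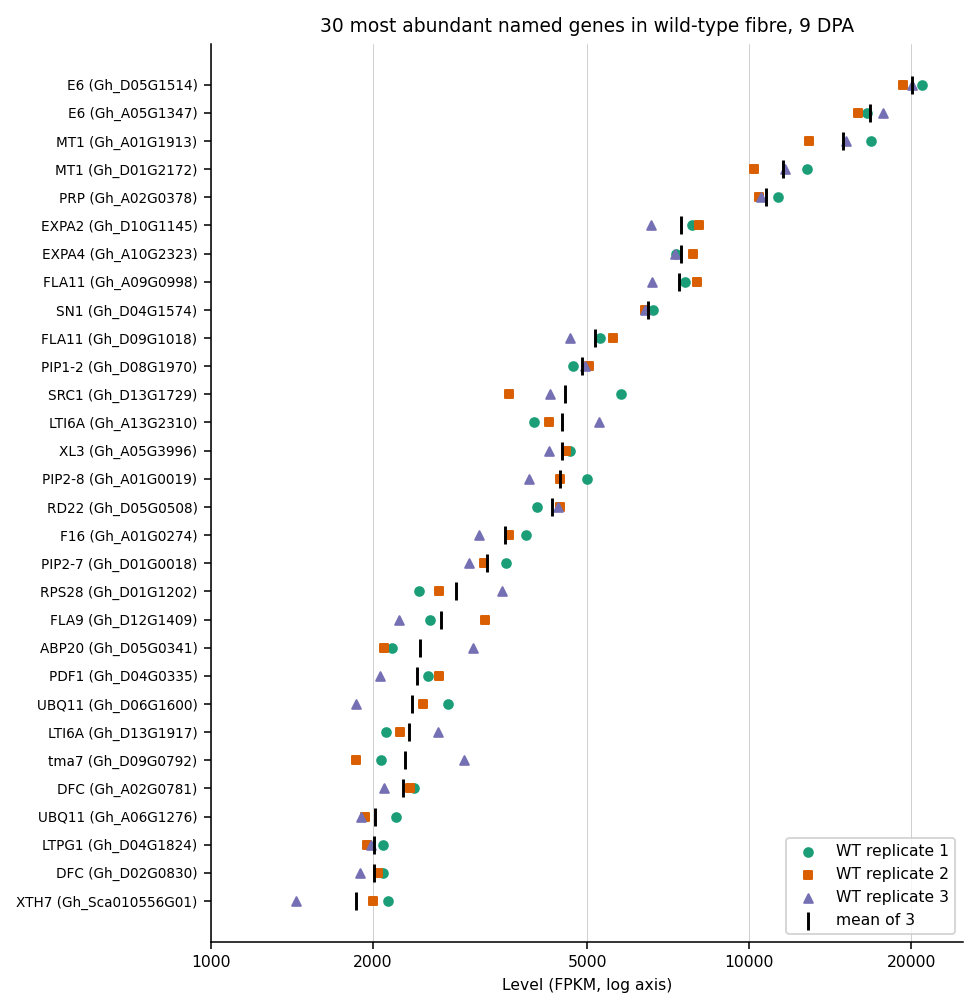
Level in FPKM (log axis) of the 30 most abundant genes with a descriptive symbol, with 1 marker for each WT library and a bar at the mean of 3. The E6 pair heads the set at 15941 FPKM or more in every library, the MT1 pair and PRP follow at 10199 or more, and the libraries of a gene mostly lie within a narrow band.

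Many of the highest genes carried no symbol. Of the 130 genes with a mean of 1000 FPKM or more, 52 had none, and so had 5 of the 10 highest. Genes without a symbol held 28.3 ± 1.28% of the summed FPKM. The highest, chosen here after its values were seen, was Gh_A10G1332, at 21865, 17959.5 and 11995 FPKM. It was the top gene of WT replicate 1 but lower than E6 on D05 (Gh_D05G1514) in WT replicates 2 and 3. No role is given for these genes because the file pairs them with no name.

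Gene families were compared by the share of the summed FPKM that their members held. The lists, 50 in all, were defined by symbol and together held 27.7 ± 0.118% of FPKM. The 10 lists of wall genes held 4.52 ± 0.427%, the 6 of transport 2.84 ± 0.101%, the 4 of lipid metabolism 1.76 ± 0.0773%, the 4 of the cytoskeleton 1.52 ± 0.0855%, and the 13 of regulators 1.28 ± 0.0811%. Wall genes exceeded transport genes in every library, and transport genes exceeded lipid genes. Regulators had the most members, 3644, and the lowest median, 0.0743 FPKM, against 0.219 for wall, 0.605 for transport, 2.02 for cytoskeleton and 3.51 for lipid genes. Outside these themes, 849 ribosomal protein genes held 7.42 ± 0.257%, the largest share of the 50 lists.

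**Figure D2:**
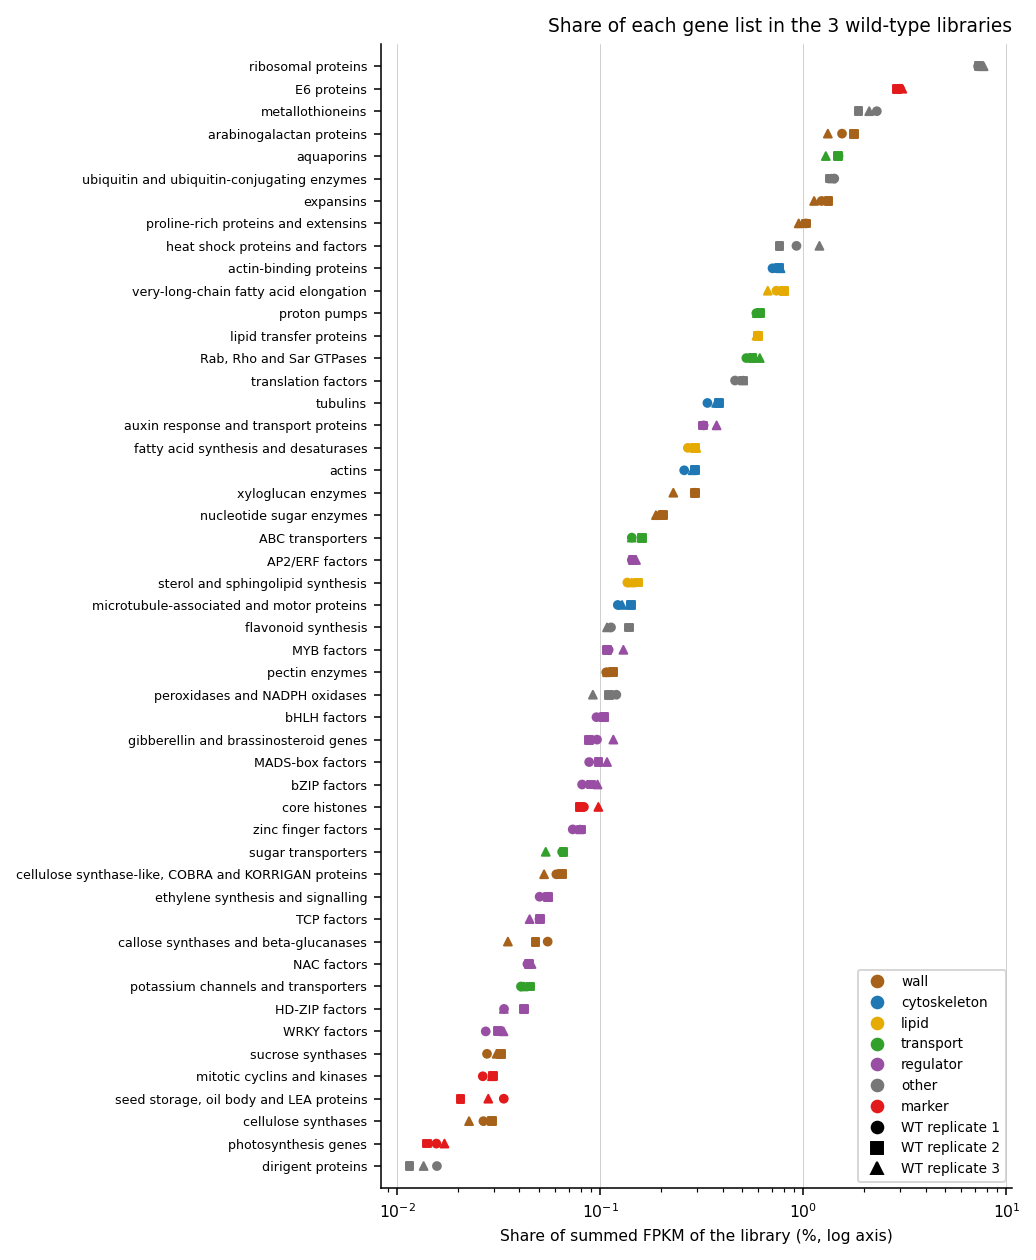
Share of the summed FPKM of a library (%, log axis) held by each of 50 gene lists, ordered by mean share and coloured by theme, with 1 marker for each WT library. Ribosomal proteins, E6 and metallothioneins lead. Arabinogalactan proteins, aquaporins, ubiquitin with its conjugating enzymes, and expansins also each hold over 1% in every library. Cellulose synthases lie near the bottom.

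Among wall genes, surface glycoproteins and expansins dominated and polymer synthases were low. Arabinogalactan proteins held 1.55%, 1.77% and 1.32% of FPKM in WT replicates 1 to 3, expansins 1.23%, 1.33% and 1.13%, and proline-rich proteins and extensins 1.03%, 1.03% and 0.949%. Each share rested on very few genes. The 3 highest of 85 expansins carried 96.7% of the family's FPKM, and 30 of the 85 were listed at 0 in all 3 libraries. The third, EXPA4 (Gh_D07G0974), was already down at 201 ± 45.0 FPKM. Only 19 expansins (22.4%) reached 1 FPKM in all libraries, against 42.7% of all genes. Whole sets of namesakes were silent or nearly so: 6 of 6 genes named EXPA17 and 4 of 4 named EXPB2 were listed at 0, and the highest of 7 named EXPA7 had 0.0368 FPKM.

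Arabinogalactan proteins were less concentrated, with 77.4% of the family's FPKM in the 3 highest genes. Of 106 members, 28 (26.4%) were listed at 0 and 14 had means of 100 FPKM or more. All 6 genes named FLA14 and all 6 named AGP23 were listed at 0. In the proline-rich list, PRP (Gh_A02G0378) alone carried 84.3% of the family's FPKM, with PRP2 (Gh_D01G1604) at 1286 ± 255 FPKM and its A01 namesake (Gh_A01G1360) at 413 ± 131.

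Cellulose synthases build cellulose at the plasma membrane. In Arabidopsis, CESA1, CESA3 and CESA6 serve the primary wall, and CESA4, CESA7 and CESA8 the secondary wall. The 44 genes named CESA held 0.0261 ± 0.00334% of FPKM, and none reached 100 FPKM. CESA3 led, at 55.3, 60.6 and 51.9 FPKM for Gh_A08G1305 and 50.8, 58.5 and 50.1 for Gh_D08G1597, followed by CESA1 (Gh_D05G0077) at 49.4, 46.2 and 41.4. The libraries of these 2 CESA3 genes overlapped. Summed over namesakes, CESA3 (10 genes) had 137 FPKM, CESA1 (4 genes) 128 and CESA6 (11 genes) 60.9, whereas CESA4 (6 genes) had 2.30, CESA7 (6 genes) 0.201 and CESA8 (4 genes) 3.12. Each primary-wall name was higher in sum than each secondary-wall name. KORRIGAN (KOR), an endoglucanase needed for cellulose synthesis, was above any CESA gene, at 146 ± 30.9 FPKM for Gh_A06G2111 and 110.4 ± 20.8 for Gh_D06G1285. The mannan synthase name CSLA2 (Gh_D09G0899) had 62.3 ± 6.36 FPKM. COBL4 and COBL10 names were all under 1 FPKM, at most 0.121 and 0.223.

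Enzymes that supply or modify the wall polymers lay between these extremes. Xyloglucan enzymes held 0.271 ± 0.0362% of FPKM. XTH7 (Gh_Sca010556G01) gave 53.8% of it, followed by XTHB (Gh_D11G0639) at 397 ± 61.4 FPKM and XTH7 (Gh_A11G0455) at 269 ± 74.5. Nucleotide sugar enzymes, which make the sugar donors for wall polysaccharides, held 0.197 ± 0.00809%. They were led by the UDP-xylose synthase UXS2 (Gh_A11G1044) at 472 ± 37.0 FPKM, the UDP-glucose pyrophosphorylase UGPA (Gh_D11G1720) at 241 ± 6.14, and UPTG2 (Gh_A07G0609) at 186 ± 12.2.

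Of 101 nucleotide sugar genes, 16 (15.8%) were listed at 0, against 41.7% of 235 pectin genes. The pectin list was led by the UDP-glucuronate epimerase GAE6 (Gh_D02G0251) at 162 ± 8.72 FPKM, the pectin acetylesterase PAE1 (Gh_D10G0488) at 81.9 ± 2.66 and the pectin methylesterase PME31 (Gh_D09G0119) at 72.9 ± 2.17. Sucrose synthase, which splits sucrose to UDP-glucose, held 0.0303 ± 0.00239%; its highest gene, SS (Gh_D05G0363), was at 104, 140.4 and 136 FPKM, with SS on A05 (Gh_A05G3937) and D06 (Gh_D06G0825) at 74.8 ± 9.13 and 63.8 ± 8.59.

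Callose is a wall glucan that also regulates plasmodesmata, the channels between plant cells. The list was led by PDCB3, a plasmodesmal callose-binding protein, at 148 ± 29.2 FPKM (Gh_D13G0849) and 130.2 ± 24.5 (Gh_A13G0725). The beta-glucanase gene BG1 (Gh_D05G3800) stood apart between libraries, at 215 FPKM in WT replicate 1 and 2.54 and 1.28 in WT replicates 2 and 3. Its mean of 72.9 FPKM therefore describes WT replicate 1 only.

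The cytoskeleton lists were broadly expressed. Of 478 members, 71 (14.9%) were listed at 0 and 260 (54.4%) reached 1 FPKM in all libraries. Actin-binding proteins held the largest share, 0.746 ± 0.0359%, led by profilin, which binds actin monomers. PRO1 (Gh_A08G2170) was at 1665, 1471 and 1792 FPKM and PRO2 (Gh_D08G2536) at 1473, 1287 and 1533, both lowest in WT replicate 2, while PRO1 (Gh_D05G0265) was at 716 ± 20.2. The actin-severing factor ADF2 summed to 1741 FPKM over 7 genes.

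Of 24 actins, 9 had means of 100 FPKM or more and 4 (16.7%) were listed at 0, and of 61 tubulins, 13 reached 100 FPKM and 15 (24.6%) were listed at 0; the difference between the families was not tested. All 12 actin genes named ACT7 reached 1 FPKM in every library; the highest actins were Gh_Sca008940G01 at 694 ± 28.5, Gh_D11G3453 at 595 ± 46.3 and Gh_D11G0591 at 432 ± 42.3. The beta-tubulin TUBB5 had 537, 508 and 597 FPKM on D11 (Gh_D11G3344) and 476, 481 and 618 on A11 (Gh_A11G2742), and TUBB1 (Gh_A08G2381) had 517 ± 64.9. These 3 overlapped, so their order is not resolved. Among alpha-tubulins, TUBA3 summed to 1162 FPKM over 8 genes, whereas the 8 genes named TUBA1 summed to 0.633. Microtubule-associated and motor proteins held 0.131 ± 0.0106%, led by WDL1 (Gh_A01G1703) at 208 ± 39.8 FPKM, with WVD2 (Gh_A07G0225) at 77.0 ± 12.1 and WDL1 (Gh_D01G1953) at 75.6 ± 16. WVD2 and WDL1 are named after microtubule-binding proteins that affect directional cell growth.

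Lipid genes were led by the elongation of very-long-chain fatty acids, which are precursors of cuticular wax and sphingolipids. This list held 0.737%, 0.802% and 0.668% of FPKM. CUT1, a condensing enzyme of elongation, was at 1625, 1716 and 1289 FPKM for Gh_D02G1726 and 1173, 1193 and 1252 for Gh_A01G1563. The ketoacyl reductase KCR1 (Gh_A03G1143), which acts next in the cycle, was at 1277, 1232 and 959. All 6 genes named KCS2, another condensing enzyme, reached 1 FPKM in every library and summed to 1639.7 FPKM, with the highest at 941. The single KCS16 gene was listed at 0. Each step of the cycle had a gene of at least 59.6 FPKM: the condensing enzymes, KCR1, the dehydratase PAS2 at 59.6, and the enoyl reductase ECR at 282.

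Lipid transfer proteins held 0.596 ± 0.00677%. LTPG1 (Gh_D04G1824) was the highest, followed by YLS3 on A08 (Gh_A08G0720) at 1782 ± 110.2 FPKM and on D06 (Gh_D06G1169) at 1120.1 ± 34.3. Of 61 members, 21 (34.4%) were listed at 0. In the list of fatty acid synthesis and desaturases, the acyl carrier protein ACP1 had 1063 ± 148 FPKM (Gh_D13G1063) and 259 ± 7.54 (Gh_A09G2045). The oleate desaturase FAD2 (Gh_A11G2814) had 276 ± 69.0. In sterol and sphingolipid synthesis, the sphingolipid desaturase SLD2 (Gh_A08G2217) had 295 ± 23.5 FPKM, its D08 namesake (Gh_D08G2583) 143 ± 11, and the sterol methyltransferase SMT2 (Gh_A05G2169) 143 ± 9.74.

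Transport was led by water channels and vacuolar proton pumps. Aquaporins held 1.49%, 1.48% and 1.29% of FPKM, and their 3 highest genes, the PIP genes given above, carried 69.6% of that. Tonoplast channels were high through TIP1-1 and TIP1-3, which summed to 1965 and 1783 FPKM, whereas the 2 genes named TIP3-2 and the 2 named TIP5-1 were listed at 0. Of 105 aquaporins, 28 were listed at 0 and 9 had means of 100 FPKM or more.

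Proton pumps, which energise solute uptake, held 0.598 ± 0.0155%, and their leaders were subunits of the vacuolar ATPase. CVA16-2 (Gh_A13G2207) had 892 ± 34.4 FPKM, VATG (Gh_D13G0234) 576 ± 9.58 and VATE (Gh_A08G1006) 374 ± 21.9. Plasma membrane pump names were lower than these leaders, with AHA11 and AHA10 summing to 155 and 129 FPKM. Summed likewise, names of vacuolar ATPase subunits lay on both sides of these values, with VHA-B2 at 33.4 and CVA16-2 at 1589 FPKM. Potassium channels and transporters held 0.0426 ± 0.00217% with no gene at 100 FPKM, led by POT2 (Gh_A05G2379) at 99.5 ± 2.74, POT4 (Gh_A11G0578) at 70.6 ± 6.22 and POT2 (Gh_D05G2644) at 54.6 ± 9.25.

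Sugar transporters were led by SWEET15, a sugar exporter, at 207, 189 and 146 FPKM for Gh_A04G0861 and 145, 128 and 102 for Gh_D04G1360, with the monosaccharide carrier name STP5 (Gh_D05G2178) at 89.2 ± 5.43. Both SWEET15 genes were lowest in WT replicate 3. Among ABC transporters, ABCG15 (Gh_D05G0706) had 512 ± 44.6 FPKM and ABCG11, a wax and cutin exporter in Arabidopsis, 159 ± 0.753 (Gh_A03G0786) and 112 ± 5.65 (Gh_D02G1202). Small GTPases of vesicle traffic were widely expressed, with 166 of 223 (74.4%) at 1 FPKM or more in all libraries. RAB11C was at 382 ± 119.6 FPKM (Gh_A05G0777) and 324 ± 98.0 (Gh_D05G0907), and RABE1A (Gh_D04G2003) at 197 ± 26.2.

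**Figure D3:**
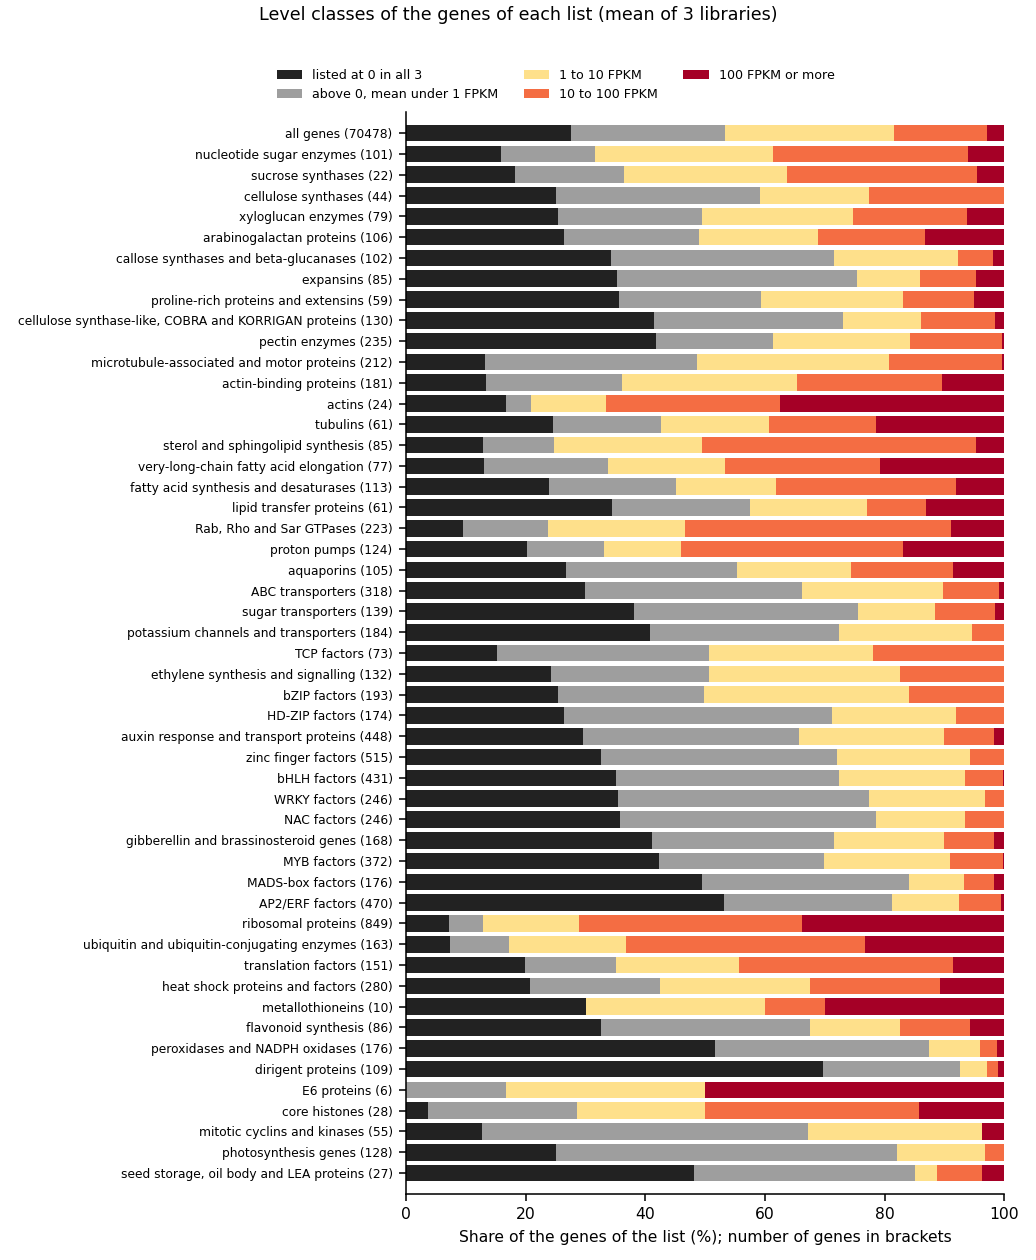
Share of the genes of each list (%) that were listed at 0 in all 3 libraries, above 0 with a mean under 1 FPKM, or with a mean of 1 to 10, 10 to 100, or 100 FPKM or more; the bar of all 70478 genes stands on top and the number of genes is in brackets. Dark bars mark silent members: 69.7% of dirigent proteins, 53.2% of AP2/ERF factors and 51.7% of peroxidases, against 7.07% of ribosomal proteins and 27.6% of all genes.

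Regulators were low in sum, and hormone-response genes led them. Among the 10 most abundant regulators, 6 belonged to the auxin list, which held 0.339 ± 0.0299% of FPKM over 448 genes. SAUR71, a small auxin-up RNA, was at 503, 447 and 744 FPKM for Gh_A12G0376 and 263, 279 and 517 for Gh_D12G0289, both highest in WT replicate 3. SAUR32 (Gh_A08G1096) had 332 ± 43.2. IAA14 (Gh_A09G1947), an Aux/IAA repressor of auxin response, was steadier at 434, 406 and 432. The gibberellin-regulated peptide gene GASA4 (Gh_D04G0443) varied most of the 10 after SAUR71 on D12, at 413, 244 and 509 FPKM. It headed the gibberellin and brassinosteroid list, ahead of the steroid reductase DET2 (Gh_D04G1238) at 146 ± 5.10 and GASA4 (Gh_D09G0145) at 115 ± 11.7.

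The highest transcription factor genes were RAP2-12 and AGL11. RAP2-12, an ethylene response factor known in Arabidopsis from low-oxygen signalling, was at 449, 486 and 409 FPKM for Gh_A10G0471 and 153, 184 and 183 for Gh_D10G0495. AGL11 is a MADS-box factor known from ovule identity in Arabidopsis. It was at 356, 355 and 411 FPKM for Gh_A05G2334, at 234, 257 and 289 for Gh_A05G2136, and at 94.8, 125 and 109 for Gh_D05G2375. Other ovule and flower MADS names were present at lower levels, SEP2 at 107 FPKM and AG2 at 95.2 summed over namesakes, whereas 87 of 176 MADS-box genes (49.4%) were listed at 0, among them 18 of 20 named AGL62.

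Factors known from the identity of plant epidermal hairs, named here after their values were seen, ranged widely in level. The highest of 6 genes named GL3, a bHLH partner in Arabidopsis leaf hair formation, had a mean of 1.33 FPKM, and the single MYB23 gene, a MYB factor of the same process, 0.0254. GL2, an HD-ZIP factor of Arabidopsis leaf hairs, was at 37.1, 52.7 and 37.0 FPKM for Gh_D05G1246 and 40.7, 54.5 and 28.9 for Gh_A05G3845. HDG11 (Gh_D12G2590) had 25.3 ± 3.94. MYB5, a MYB factor of seed coat and hair development in Arabidopsis, had 84.7 ± 6.49 (Gh_A11G2726). MYB306, given here as the highest MYB gene and not for a part in hairs, had 127 ± 55.3 (Gh_D13G1712) and 79.0 ± 11.9 (Gh_A13G1399). WRKY44, named after the hair and seed coat factor TTG2 of Arabidopsis, was the highest WRKY gene at 21, 29.4 and 31.3 FPKM (Gh_D04G1122). WRKY19 (Gh_D13G0552) and WRKY11 (Gh_D07G0023) followed at 27.0 ± 2.11 and 26.8 ± 12.1, within its range, and 87 of 246 WRKY genes (35.4%) were listed at 0.

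The leaders of the other factor families lay between 37.3 and 185 FPKM. ERF105 (Gh_D07G0441) had 185 ± 62.9. Among bHLH factors, IBH1 (Gh_A07G1786), a growth inhibitor in Arabidopsis, had 141 ± 34.9, BHLH149 (Gh_D13G1180) 94.2 ± 19.3 and BHLH148 (Gh_D09G2330) 50.2 ± 7.24. TCP factors, which control cell growth, had few silent members, 11 of 73 (15.1%), and were led by TCP8 (Gh_D01G1783), TCP7 (Gh_A12G1214) and TCP14 (Gh_A11G0279) at 92.7, 69.1 and 64.0 FPKM. The bZIP leaders were BZIP61 (Gh_A13G1269), BZIP60 (Gh_D05G2786) and BZIP53 (Gh_D02G2164) at 99.2, 68.8 and 67.9 FPKM. The NAC leaders were NAC056 (Gh_A01G0497 and Gh_D01G2346) and NAC100 (Gh_D11G2467) at 73.4, 44.6 and 37.3. Zinc finger factors were led by BBX24 (Gh_A09G2314), DOF5.4 (Gh_D11G0371) and DOF3.4 (Gh_A05G1712), at 39.9, 39.5 and 37.5, and these 3 overlapped. In ethylene synthesis and signalling, ACO1 (Gh_A07G0773) had 67.9 ± 12.8 and EIN3 had 43.3 ± 23.9 (Gh_D08G0312) and 37.6 ± 6.27 (Gh_D13G2404).

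Of the other lists, peroxidases and dirigent proteins had larger shares of members at 0 than the 27.6% of all genes, and 1 gene carried most of each list. Of 176 peroxidase and NADPH oxidase genes, 91 (51.7%) were listed at 0, but PER43 (Gh_A02G1203) was at 1153, 917 and 751 FPKM and carried 68.9% of the list. PER63 (Gh_D07G2217) and PER18 (Gh_A05G0507) had 158 ± 21.8 and 85.3 ± 11.3. Of 109 dirigent proteins, 76 (69.7%) were listed at 0, and DIR19 (Gh_A08G0107) at 155, 98.2 and 132 FPKM carried 74.1% of the list; DIR4 (Gh_A04G1477) and DIR2 (Gh_A05G1696) had 14 and 13. Of 86 flavonoid synthesis genes, 28 (32.6%) were listed at 0 and 15 had means of 10 FPKM or more. They were led by chalcone isomerase CHI3, at 361 ± 23.8 (Gh_A05G3491) and 285 ± 11.7 (Gh_D04G1926), and by chalcone synthase CHS (Gh_D09G0001) at 238 ± 44.6.

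Translation was represented by EIF-5A2 at 652 ± 20.2 (Gh_D09G2352) and 608 ± 8.04 (Gh_A09G2147) and by REFA1 (Gh_D01G2097) at 592 ± 63.2. Heat shock genes differed between libraries, with shares of 0.925%, 0.763% and 1.20%. HSP70 (Gh_D11G3296) had 872, 718 and 989.5 FPKM, HSP17.9-D (Gh_A05G0305) 802, 723 and 955, and HSP17.5-M (Gh_D12G1364) 758, 639 and 832, all highest in WT replicate 3.

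The libraries leaned in family-specific directions. Of 91 heat shock genes with a mean of 10 FPKM or more, 73 (80.2%) were highest in WT replicate 3, against 47.4% of 12952 genes at that level. None of 12 expansins and none of 10 cellulose synthases was highest there. The median coefficient of variation (CV, SD over mean) fell with level, from 0.208 for 19958 genes of 1 to 10 FPKM to 0.134 for 10 to 100 and 0.108 for 100 to 1000, and was 0.125 for the 130 genes at 1000 FPKM or more. The 10 most variable genes of mean 100 FPKM or more had CVs from 0.847 to 1.20, and 8 had no symbol. Gh_A08G1660, the first, was at 31.2, 35.5 and 256 FPKM. Gh_A09G2518 was at 459, 0.237 and 336. The named ones were COX3 (Gh_D04G0931), a mitochondrial-type cytochrome oxidase subunit, at 48.8, 40.1 and 227, and HSP23.6 (Gh_D12G1971) at 152, 89.0 and 459, both highest in WT replicate 3. The other 6 were Gh_D06G0517, Gh_D06G0883, Gh_D07G1914, Gh_D11G0440, Gh_A09G2520 and Gh_D05G0108, of which 4 were highest in WT replicate 1 and 2 in WT replicate 2.

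The subgenomes contributed nearly equally to the summed FPKM. The A share of A plus D was 49.5%, 49.2% and 49.1% in WT replicates 1 to 3 (49.3 ± 0.227%), while A genes were 48.2% of the genes listed on A or D chromosomes. A was below 50% in 3 of 3 libraries, and the two-sided exact sign-flip test over libraries gave p = 0.25, the smallest this design allows. Genes of mean 1000 FPKM or more numbered 60 on A, 67 on D and 3 on unplaced scaffolds. Genes listed at 0 in all libraries were 23.5% of A, 25.4% of D and 78.5% of scaffold genes.

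Single chromosomes departed further from balance. Chromosome 3 had the highest A share, at 63.9%, 63.6% and 61.5%, against 54.0% of its genes; the gene Gh_A03G1623, without a symbol, gave 20.7% of the A03 sum. Chromosome 4 had the lowest, at 38.1%, 37.3% and 37.4%, against 42.2% of its genes, and chromosome 8 followed at 38.9%, 39.7% and 42.7%, against 48.2%. On D08 the symbol-less Gh_D08G0181 gave 22.6% of the sum. The exact sign-flip p was 0.25 for each of these 3, so no chromosome could pass. Whether A and D chromosomes of the same number carry matching genes throughout was not tested.

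**Figure D4:**
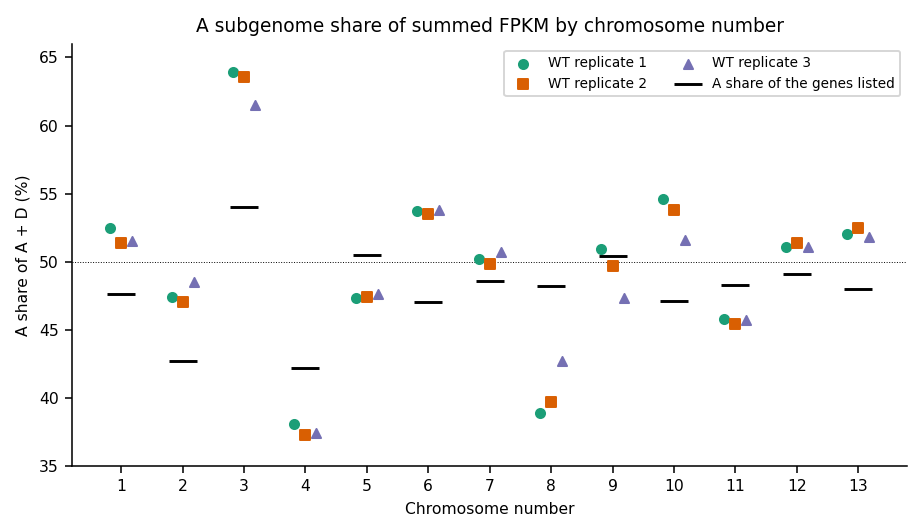
A share of the A plus D summed FPKM (%) by chromosome number, with 1 marker for each WT library; black bars give the A share of the genes listed and the dotted line marks 50%. The axis runs from 35% to 66%. Chromosome 3 lies above 60% in every library and chromosomes 4 and 8 below 43%.

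The A share differed between families. It was 97.1 ± 0.634% for dirigent proteins, 89.0 ± 2.02% for proline-rich proteins, 82.7 ± 3.98% for peroxidases and 71.1 ± 0.917% for MADS-box factors, each led by A genes named above. It was 24.4 ± 2.84% for gibberellin and brassinosteroid genes, 26.6 ± 1.86% for histones and 26.7 ± 0.755% for actins. Genes on unplaced scaffolds, whose subgenome is not given, were left out of all these shares. They include the highest actin gene, Gh_Sca008940G01, which held 19.6% of the FPKM of its list, so the actin share covers the placed genes only. Among large families, the 849 ribosomal protein genes had an A share of 49.1 ± 0.243%, the 448 auxin genes 57.6 ± 0.556% and the 318 ABC transporters 42.9 ± 0.524%.

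To compare copies directly, pairs were formed from symbols held by exactly 1 A and 1 D gene, both with the same chromosome number, with a pair mean of 1 FPKM or more. A shared symbol does not show that the genes are homoeologs, and reads that fit both copies may have been split between them, so the levels of near-identical copies are uncertain. Of 2174 such pairs, 1412 (64.9%) differed at an adjusted p under 0.05 (limma on log2(FPKM + 1), Benjamini-Hochberg over all pairs). The A copy was higher in 677 (31.1%) and the D copy in 735 (33.8%). The median A minus D difference was -0.02 and the median absolute difference 0.52 on the log2 scale. A called difference of at least 2-fold on that scale was found in 544 pairs (25%), 251 toward A and 293 toward D.

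The 5 largest called A excesses were in ERD10, GAPC, GPAT8, PMEU1 and SSL13. ERD10, a dehydrin, had 418, 419.9 and 595 FPKM on A01 (Gh_A01G0871) and 14.0, 13.4 and 10.6 on D01 (Gh_D01G0906), a log2 difference of 5.12 ± 0.15 (SE; limma adjusted p = 1.5e-08). GPAT8, an acyltransferase of cutin synthesis, had 177, 137 and 109.5 FPKM on A11 (Gh_A11G0804) and 5.57, 8.86 and 3.73 on D11 (Gh_D11G0942). The glycolytic enzyme gene GAPC had mean levels of 88.8 and 2.13 (Gh_A11G0330 and Gh_D11G0386), PMEU1 18.4 and 0.104 (Gh_A05G0274 and Gh_D05G0375), and SSL13 34.9 and 1.20 (Gh_A09G2313 and Gh_D09G2009). The copies did not overlap in any of these 5 pairs.

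The 5 largest D excesses were in ABP20, LTI6B, CML16, SEC61G2 and RALFL31. ABP20, among the 30 highest genes, had 2165, 2099 and 3061 FPKM on D05 (Gh_D05G0341) and 15.7, 13.8 and 22.7 on A05 (Gh_A05G0249), a log2 difference of -7.06 ± 0.06 (SE; limma adjusted p = 3.0e-12). The small membrane protein gene LTI6B had 119.7 ± 18.3 on D07 (Gh_D07G1300) and 0.172 ± 0.166 on A07 (Gh_A07G1199). The calmodulin-like CML16 had 67.3 ± 19.0 on D12 (Gh_D12G1709) and was listed at 0 in 2 libraries on A12 (Gh_A12G1578), with 0.0882 FPKM in the other. SEC61G2, a subunit of the protein channel of the endoplasmic reticulum, had 51.8, 39.3 and 46.9 FPKM on D12 (Gh_D12G1880), while Gh_A12G2556 was listed at 0 in all 3. RALFL31, a secreted signalling peptide gene, had 94.9 ± 26.2 on D02 (Gh_D02G0247) and 1.08 ± 0.209 on A02 (Gh_A02G0183).

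Because most fibre families share symbols across chromosomes, pairs were also formed per chromosome number, allowing a symbol to recur elsewhere; this was added after the data were seen. Of 8345 such pairs, 5767 (69.1%) differed at an adjusted p under 0.05, 2812 (33.7%) toward A and 2955 (35.4%) toward D. The 3 most abundant pairs differed by 1.20 to 1.43 times. E6 on chromosome 5 was 1.20 times higher on D (log2 difference -0.27 ± 0.03, SE; limma adjusted p = 1.4e-04), MT1 on chromosome 1 was 1.29 times higher on A, and FLA11 on chromosome 9 was 1.43 times higher on A. The next 3 pairs, LTI6A on chromosome 13, XL3 on chromosome 5 and F16 on chromosome 1, were 1.93, 2.95 and 3.69 times higher on A. Strong inequality was found beside them. E6 on chromosome 10 had 1279.5, 883 and 1400.3 FPKM on D (Gh_D10G0257) and 2.58, 1.80 and 2.30 on A (Gh_A10G0257). TIP1-1 on chromosome 1 had 2164, 1932 and 1439 on A (Gh_A01G1820) and 33.7, 44.1 and 15.5 on D (Gh_D01G2058). These copies did not overlap in any library.

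In 4 further pairs, chosen after their values were seen, 1 copy held most of the level. IAA14 on chromosome 9 had 424 ± 15.8 FPKM on A and 2.09 ± 0.214 on D (Gh_D09G2153; log2 difference 7.11 ± 0.08, SE; limma adjusted p = 6.2e-10). YLS3 on chromosome 6 had 1120.1 ± 34.3 on D and 9.57 ± 1.79 on A (Gh_A06G0930), XTHB on chromosome 11 had 397 ± 61.4 on D and 22.3 ± 3.47 on A (Gh_A11G0556), and TUBB1 on chromosome 8 had 517 ± 64.9 on A and 17.8 ± 3.45 on D (Gh_D08G1960). By contrast, TUBB5 on chromosome 11, at 525 ± 80.3 and 547 ± 45.7, did not pass (log2 difference -0.07 ± 0.06, SE; adjusted p = 0.323), nor did GL2 on chromosome 5, at 41.3 ± 12.8 and 42.3 ± 9.04 (-0.06 ± 0.11; adjusted p = 0.659), or CYCB1-2 on chromosome 8 (-0.14 ± 0.06; adjusted p = 0.0703).

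Family counts were read against the 69.1% over all pairs. A larger part was called among abundant pairs, 413 of 488 at a pair mean of 100 FPKM or more. Aquaporins had 14 of 16 pairs called, 11 toward A and 3 toward D, with a median difference of 1.27 against -0.02 for all pairs. The summed level of the family leaned the other way, with an A share of 42.6 ± 2.67% over the placed genes among its 105 members. Pectin genes had 23 of 33 called (69.7%), 6 toward A and 17 toward D. Lipid transfer proteins had 7 of 7 called, 2 toward A and 5 toward D, and expansins 7 of 8, 2 toward A and 5 toward D. Tubulins had 6 of 9 called (66.7%) and ribosomal proteins 159 of 212 (75.0%), with 74 toward A and 85 toward D. Cellulose synthases had 5 of 5 called, 3 toward A and 2 toward D. The 3 toward A were the CESA6 pairs on chromosomes 5, 6 and 11, with log2 differences of 1.92, 1.89 and 1.3. The 2 toward D were the CESA8 pair on chromosome 10 (-1.08) and the CESA4 pair on chromosome 8 (-1.02). Both of these lay near the limit of 1 FPKM on the pair mean. None of the 5 pairs was of CESA3 or CESA1, the leading cellulose synthase names.

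**Figure D5:**
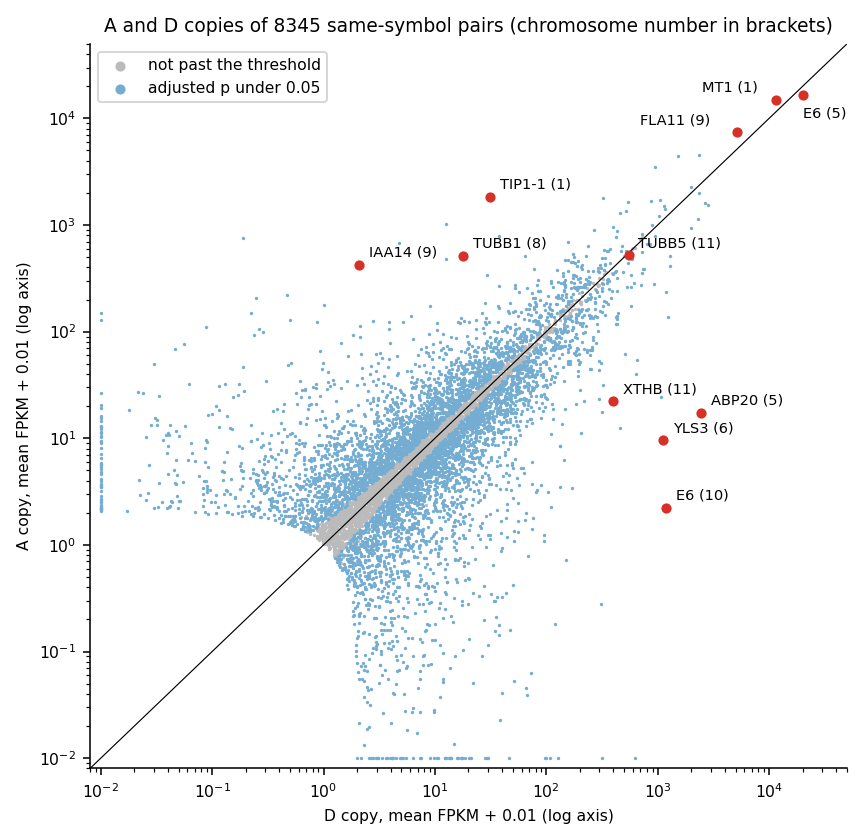
Mean FPKM of the D copy (x) and the A copy (y) for 8345 same-symbol pairs per chromosome number, both on log axes after adding 0.01 FPKM; blue points passed the adjusted p threshold, grey points did not, red points are named with their chromosome number in brackets, and the line marks equality. The E6 (5), MT1 (1) and FLA11 (9) pairs lie near the line at the top right, while TIP1-1, IAA14 and TUBB1 lie far on the A side and E6 (10), YLS3, ABP20 and XTHB far on the D side.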

How the data were processed

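Total RNA from fibres was extracted with a plant kit for polysaccharide- and polyphenol-rich tissue, and Illumina libraries were made, per the labels' protocols. The authors deposited FPKM per gene. Per the submitters' processing notes, the tools were FastQC, HISAT2 and DESeq 1.10.1, with no step assigned to any. Not given in the sources used here are the build, annotation, counter and treatment of multi-mapping reads. The 3 WT columns were used and 5 other columns were not used. Absolute read numbers are unknown, so no counting intervals are given; relative depth came from ratios of values under 0.5 FPKM (tolerance 0.01 on the log2 scale).

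Levels are means ± SD of 3 libraries. Pairs were tested with limma 3.58.1 in R 4.3.3 on the within-library difference of log2(FPKM + 1), with an empirical Bayes trend, two-sided, at an adjusted p under 0.05; the pseudocount understates differences of low genes. The same fit was run on simulated data built from the mean levels of the real pairs, and the outcome of that check is not used here. The library is the block of this fit, since both copies come from the same library. The deviations of the copies from their means correlated within libraries, at 0.26, 0.48 and 0.51 over 2174 pairs.

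The 50 lists are symbol patterns. They and the rules were chosen with earlier results of these data known. The lists were corrected by symbol after symbols and some values had been seen, and the histone pattern was added last. Genes named are the 30 most abundant with a descriptive symbol, the 3 highest of each list, the 10 highest regulators, the 5 largest called pair differences each way and the 10 highest CVs from 100 FPKM. Of the regulators, 1 symbol is not reported here. Other genes, summed namesakes and pairs per chromosome number were chosen after their values were seen. Python 3.11.15, pandas 2.3.3 and matplotlib 3.10.9 were used.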

Additional observations from a re-analysis of the deposited data

How the results depend on the processing

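Rescaling a library cannot change its values of 0 or the shares within it, so these were not put to a test by TPM or median-ratio scaling. The count of genes at 1 FPKM or more was 28307 after TPM scaling and 30111 after median-ratio scaling, 34168 at a limit of 0.5 FPKM, and 35189 when 1 library sufficed. Between 29 and 30 of the 30 most abundant named genes remained. Without replicate 1, 2 or 3, the A share lay between 49.2% and 49.4%, genes listed at 0 between 20315 and 21749, and pairs called between 1240 and 1274. Without the 10 most abundant genes of each subgenome the A share was 48.9%, and over genes with a symbol 49.6%. With only genes with a symbol as denominator, the shares were 2.16% for arabinogalactan proteins, 1.04% for actin-binding proteins, 1.03% for fatty acid elongation, 1.98% for aquaporins and 0.473% for auxin genes. Without the 10 most abundant genes they were 0.838% for actin-binding proteins, 0.827% for fatty acid elongation, 1.60% for aquaporins and 0.381% for auxin genes. The denominator is smaller in both. Of the other 45 list shares, 45 moved by over 1 SD with the first and 35 with the second. Leaving out 1 of 3 libraries cannot move their mean by over 1 SD, so that setting did not test these shares. Lists that hold some of the 10 genes fell, E6 from 2.99% to 0.105%, metallothioneins from 2.10% to 0.0196% and proline-rich proteins to 0.178%. At a pair mean of 5 FPKM, 835 of 1177 pairs were called, 405 toward A and 430 toward D. With pairs per chromosome number, 5767 of 8345 (69.1%) were called, 2812 toward A and 2955 toward D. The main fit called 1412 of 2174 (64.9%), so both the number tested and the share called differed between settings. Without the replicate block (A and D copies as separate samples), 1138 pairs were called, 530 toward A and 608 toward D, all of them among the 1412. All 10 named pairs kept their direction and call in every fit that held them. The depth of the libraries limits what a value of 0 means, and the absolute depth is unknown.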
